A study of Mus musculus with 10 samples.

Results

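The NRF2 antioxidant programme was followed through 10 genes in diabetic mouse kidney: the regulators Nfe2l2 and Keap1, and the effectors Nqo1, Hmox1, Txnrd1, Srxn1, Ephx1, Sod1, Sod2 and Cat. They were picked by name, with the glutathione enzymes set aside, and each was matched to the expression table by Entrez Gene ID. All 10 had a row among the 16475 genes measured. The tissue was renal cortex stripped of glomeruli, from mice on the BKS background aged 24 weeks. There were 5 diabetic db/db mice, which as background carry the db mutation of the leptin receptor on both copies in every cell. Their controls were 5 non-diabetic db/m littermates, which as background are heterozygous for db in this line. Each mouse gave 1 Affymetrix array, no treatment was given, and the labels state neither sex nor pooling. Values are log2 expression levels, and changes are db/db minus db/m on that log2 scale.

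NRF2, the protein of Nfe2l2, is a transcription factor that cells make continuously and destroy continuously. KEAP1 binds it and hands it to a ubiquitin ligase, and oxidants or electrophiles that modify KEAP1 let NRF2 accumulate, enter the nucleus with a small MAF partner and bind antioxidant response elements in its target genes. Control therefore acts largely on the protein, which expression arrays do not measure. In the kidney the pathway is best known in the proximal tubule, whose cells are rich in mitochondria and exposed to filtered toxins and glucose.

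The microsomal epoxide hydrolase gene Ephx1 rose in db/db cortex, and the other 9 genes did not pass the test. Ephx1 roughly doubled, with every db/db mouse above every db/m mouse. The transcript of NRF2 itself differed by 0.11, that of its inhibitor KEAP1 by -0.04, and the group means of Nqo1, a transcript often used to read out NRF2 activity, were both 11.93. Of the 10 genes 1 rose and 0 fell by limma at an adjusted p under 0.05, and 2 had an unadjusted p under 0.05, which 21.5% of all genes had. Across all genes 6.51% were called, 2.96% as higher and 3.54% as lower, so 1 of 10 is near the background. The median change of the 10 genes was -0.02, beside -0.03 over all genes tested. Without db/db 1, a mouse whose array stood apart, Ephx1 was again the 1 gene of 10 called, and 12.8% of all genes were called, 6.84% as higher and 5.93% as lower. In that fit the db/db mean of Nqo1 was 12.1 and its change was 0.17 (limma adjusted p = 0.172).

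**Figure D1:**
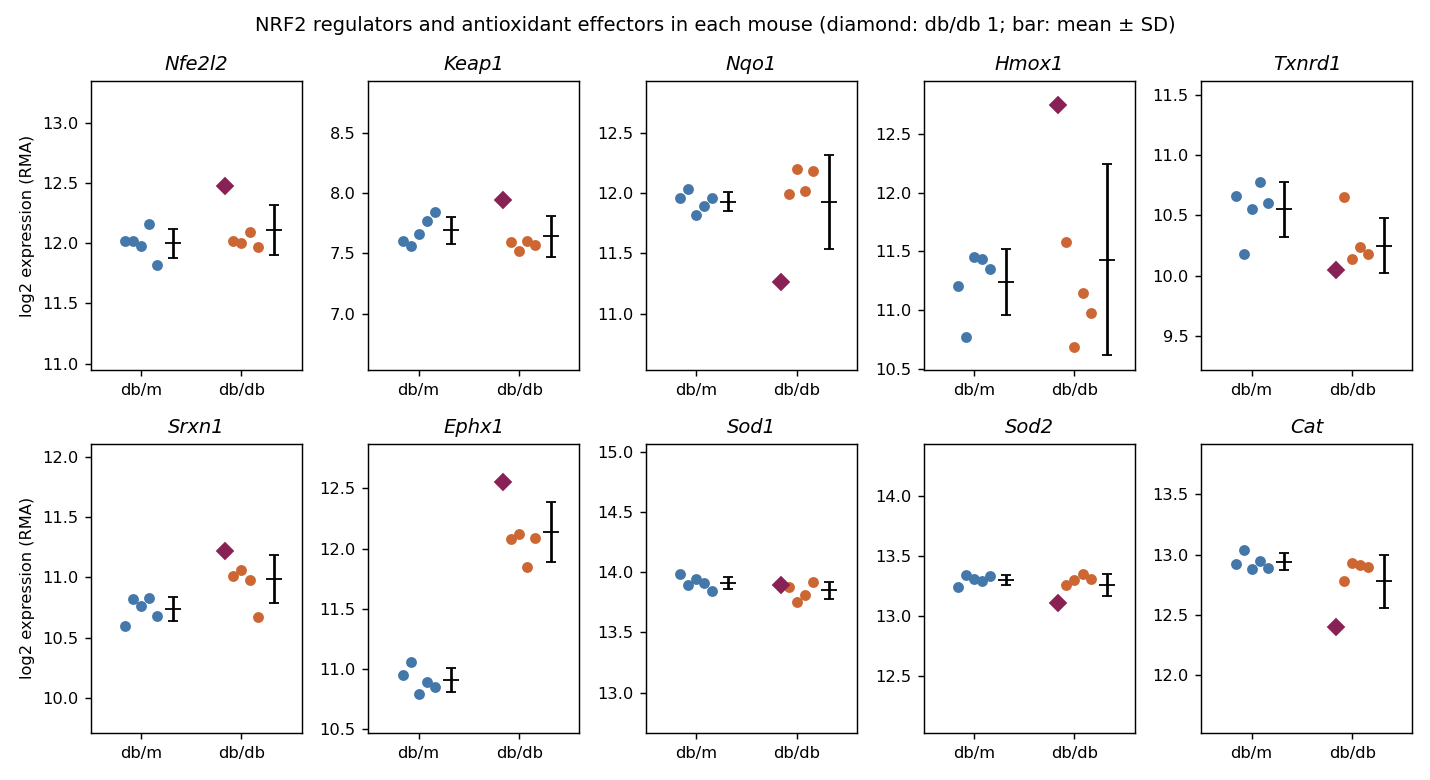
Log2 expression (y axis) of each of the 10 genes in the 5 db/m and 5 db/db mice (x axis); circles are mice, the diamond is db/db 1, and bars give the mean ± SD of all 5 mice. Every panel spans the same or nearly the same height. The groups are fully apart for Ephx1, at 10.79 to 11.06 in db/m and 11.85 to 12.55 in db/db, and overlap in the other panels.

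The arrays held signal from several cell types. Markers of the proximal tubule, which makes up most of the cortex, were bright in all mice, with the mean of the 9 measured markers at 12.95 to 13.13 in db/m, 12.46 in db/db 1 and 13.20 to 13.23 in db/db 2 to 5. Podocyte markers were still measurable after the removal of glomeruli. Their mean was 8.65 to 9.0 in db/m, 9.05 in db/db 1 and 9.27 to 9.44 in db/db 2 to 5. By limma 3 of 5 rose, against 2.96% of all genes, and 5 of 5 rose without db/db 1, against 6.84% of all genes. The mean of 10 macrophage markers was 7.48 to 7.79 in db/m, 10.58 in db/db 1, 8.44 in db/db 2 and 6.75 to 7.20 in db/db 3 to 5. The mean of 6 neutrophil markers was 5.69 to 6.48 in db/m, and 10.70, 8.57, 7.41, 5.82 and 5.74 in db/db 1 to 5. The array of db/db 1 correlated with the others, across genes, at 0.938 to 0.962, and the other 9 with each other at 0.985 or more. In such bulk tissue, fewer cells of a type and less RNA per cell cannot be told apart.

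Ephx1 (Entrez 13849) encodes the epoxide hydrolase of the endoplasmic reticulum, which adds water to reactive epoxides made by cytochrome P450 enzymes. Its level was 10.95, 11.06, 10.79, 10.89 and 10.85 in db/m mice 1 to 5, and 12.55, 12.08, 12.12, 11.85 and 12.09 in db/db mice 1 to 5. The groups did not overlap, and db/db 1 was the highest of the 10 mice. The means were 10.91 ± 0.10 in db/m and 12.14 ± 0.25 in db/db (SD, n = 5 each), a 2.34-fold rise (change 1.23 ± 0.12 SE, limma adjusted p = 0.000495). The 95% interval ran from 0.96 to 1.49, or 1.95-fold to 2.82-fold. Among the 16475 genes it ranked 34 by p, and 10.2% of all genes had groups that did not overlap. Without db/db 1 the change was 1.13 ± 0.08 (adjusted p = 0.000175), and it was called in all 10 fits that each left out 1 mouse, at an adjusted p of 0.00286 or less. The podocyte markers were also higher in db/db, as given above, and their part in the rise of Ephx1 was not tested. Of the 9 proximal tubule markers 0 passed by limma with all mice, also 0 at an unadjusted p under 0.05. Without db/db 1 the organic anion transporter gene Slc22a8 rose (0.83, adjusted p = 0.00119). It was the 1 of 9 called, 11.1% against 12.8% of all genes. In that fit 4 of the 9 had an unadjusted p under 0.05, all higher in db/db. The share of all genes at that unadjusted cut was not computed without db/db 1, so the 4 of 9 has no background beside it. The part of the proximal tubule markers in the rise of Ephx1 was not tested either.

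Since Ephx1 was the gene that changed, the 250 bases before its annotated start are shown, at chr1:181017570-181017819 on the minus strand of GRCm38.p6, from RefSeq. The core of the antioxidant response element, TGACNNNGC, was searched on both strands of the 300 bases around each start, 250 before to 50 after. It was not found in the Ephx1 window.
Ephx1: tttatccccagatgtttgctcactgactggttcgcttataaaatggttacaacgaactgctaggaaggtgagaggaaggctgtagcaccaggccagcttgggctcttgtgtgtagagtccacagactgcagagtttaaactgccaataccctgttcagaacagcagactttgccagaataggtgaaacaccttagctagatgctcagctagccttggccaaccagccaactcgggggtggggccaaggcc

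Of the 9 members with a window in the RefSeq table, 4 held the core, namely Nfe2l2, Txnrd1, Srxn1 and Sod1; Hmox1 has no entry. Of the 12800 array genes with a window 16.2% held it, of all 27025 genes with a window 14.0%, and of all 32851 windows 12.4%. The matches are shown with 10 flanking bases on each side and the match in capitals, to set the letters of genes that did not pass the test beside those of Ephx1. They lie at chr2:75704885-75704913 on the minus strand for Nfe2l2, beginning 240 bases before the start, and at chr10:82859104-82859132 on the plus strand for Txnrd1, beginning 92 bases before 1 of its 3 starts. For Srxn1 the run lies at chr2:152105542-152105570 on the plus strand, with the match beginning at base 29 of the transcript, and for Sod1 at chr16:90220696-90220724 on the plus strand, with the match beginning 56 bases before the start. The Nfe2l2 match reads as written and the other 3 read on the opposite strand. A match describes letters and not a bound site, and elements farther from the start lie outside these windows.
Nfe2l2: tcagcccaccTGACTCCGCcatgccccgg
Txnrd1: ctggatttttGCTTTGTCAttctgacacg
Srxn1: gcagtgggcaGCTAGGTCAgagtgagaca
Sod1: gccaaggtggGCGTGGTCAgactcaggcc

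Neither regulator passed the test. Nfe2l2 (Entrez 18024) was at 12.02, 12.02, 11.98, 12.16 and 11.82 in db/m mice 1 to 5, and at 12.47, 12.02, 12.00, 12.09 and 11.97 in db/db mice 1 to 5. The db/db 1 mouse was the highest of all, and the other 4 db/db mice lay within the db/m range. The change was 0.11 ± 0.11 (limma adjusted p = 0.602), with a 95% interval of -0.13 to 0.35, and without db/db 1 it was 0.02, with an interval of -0.15 to 0.18. Keap1 (Entrez 50868), the sensor and adaptor that marks NRF2 for destruction, was at 7.60, 7.56, 7.66, 7.77 and 7.84 in db/m and at 7.94, 7.59, 7.52, 7.60 and 7.57 in db/db. Again db/db 1 was the highest mouse and the other db/db mice lay at or near the lower end of db/m. The change was -0.04 ± 0.09 (adjusted p = 0.832; interval -0.25 to 0.17), and -0.12 without db/db 1 (adjusted p = 0.335).

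Nqo1 and Hmox1, both widely used as NRF2 readouts, did not pass the test. Nqo1 (Entrez 18104) encodes a quinone reductase that reduces quinones without releasing radicals. Its level was 11.96, 12.03, 11.82, 11.89 and 11.96 in db/m, and 11.26, 11.99, 12.20, 12.02 and 12.18 in db/db mice 1 to 5. The db/db 1 mouse was the lowest of the 10, while 2 of the other 4 db/db mice were above every db/m mouse. With all mice the 95% interval of the change was -0.37 to 0.36 (limma adjusted p = 0.996); without db/db 1 the change was 0.17, with an interval of 0.01 to 0.33 (adjusted p = 0.172).

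Hmox1 (Entrez 15368) encodes haem oxygenase, which degrades haem to biliverdin, iron and carbon monoxide, and which tubule cells and macrophages both express. Its level was 11.21, 10.77, 11.45, 11.44 and 11.35 in db/m, and 12.75, 11.58, 10.69, 11.15 and 10.98 in db/db mice 1 to 5. The groups overlapped, with db/db 1 and db/db 2 above all db/m mice and db/db 3 below them. Mice db/db 1 and db/db 2 had the highest macrophage means, 10.58 and 8.44. In db/db 3, 4 and 5 the macrophage mean was 7.20, 7.12 and 6.75, while Hmox1 was 10.69, 11.15 and 10.98. The part of macrophage RNA in Hmox1 was not tested. The change was 0.18 ± 0.34 (limma adjusted p = 0.799), with a wide interval of -0.58 to 0.95. Without db/db 1 it was -0.15 (adjusted p = 0.701), and without db/db 1 and 2, a choice made after seeing the data, -0.31 (adjusted p = 0.309).

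Neither Txnrd1 nor Srxn1 passed the test, and their changes had opposite signs. Txnrd1 (Entrez 50493) encodes the cytosolic thioredoxin reductase, which uses NADPH to recharge thioredoxin. It was at 10.66, 10.18, 10.55, 10.78 and 10.60 in db/m, and at 10.05, 10.65, 10.14, 10.24 and 10.18 in db/db mice 1 to 5. Of the db/db mice 4 lay below 4 of the db/m mice, but db/m 2 was as low and db/db 2 as high as the opposite group. The change was -0.30 ± 0.14 (limma adjusted p = 0.241; interval -0.61 to 0.01), and -0.25 without db/db 1. Srxn1 (Entrez 76650) encodes sulfiredoxin, which restores overoxidised peroxiredoxins. It was at 10.60, 10.82, 10.76, 10.83 and 10.68 in db/m, and at 11.22, 11.01, 11.06, 10.98 and 10.67 in db/db mice 1 to 5. Mice db/db 1 to 4 were above every db/m mouse, and db/db 5 was within the db/m range. The change of 0.25 ± 0.10 had an interval of 0.03 to 0.47 and an unadjusted p of 0.0323, but the adjusted p was 0.182; leaving out 1 mouse at a time gave adjusted p from 0.0537 to 0.330.

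The genes that remove superoxide and hydrogen peroxide were among the brightest on the arrays. Sod1 (Entrez 20655), the copper and zinc superoxide dismutase of the cytosol, was at 13.98, 13.89, 13.94, 13.91 and 13.84 in db/m, and at 13.89, 13.88, 13.75, 13.81 and 13.92 in db/db mice 1 to 5. The groups overlapped, and the interval of the change, -0.19 to 0.07, spans 0.874-fold to 1.05-fold of the db/m level (-0.06 ± 0.06, limma adjusted p = 0.613). Sod2 (Entrez 20656), the manganese enzyme of mitochondria, was at 13.24, 13.34, 13.31, 13.29 and 13.33 in db/m, and at 13.11, 13.26, 13.30, 13.35 and 13.31 in db/db. Its db/db 1 value was the lowest and the other 4 lay within or at the edge of the db/m range (-0.04 ± 0.06, adjusted p = 0.789; interval -0.18 to 0.11).

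Cat (Entrez 12359) encodes catalase, the peroxisomal enzyme that splits hydrogen peroxide. It was at 12.92, 13.04, 12.88, 12.95 and 12.89 in db/m, and at 12.40, 12.78, 12.93, 12.91 and 12.90 in db/db mice 1 to 5. The low values were those of db/db 1 and db/db 2, and the other 3 db/db mice lay within the db/m range. The change was -0.15 ± 0.11 (limma adjusted p = 0.448; interval -0.39 to 0.08), and -0.06 without db/db 1 (interval -0.19 to 0.08). By mean level over the 10 arrays Sod1, Sod2 and Cat lay in percentiles 100, 99 and 97 of all genes, on a scale that ended at 14.5. Whether the arrays compress differences at that brightness was not tested.

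**Figure D2:**
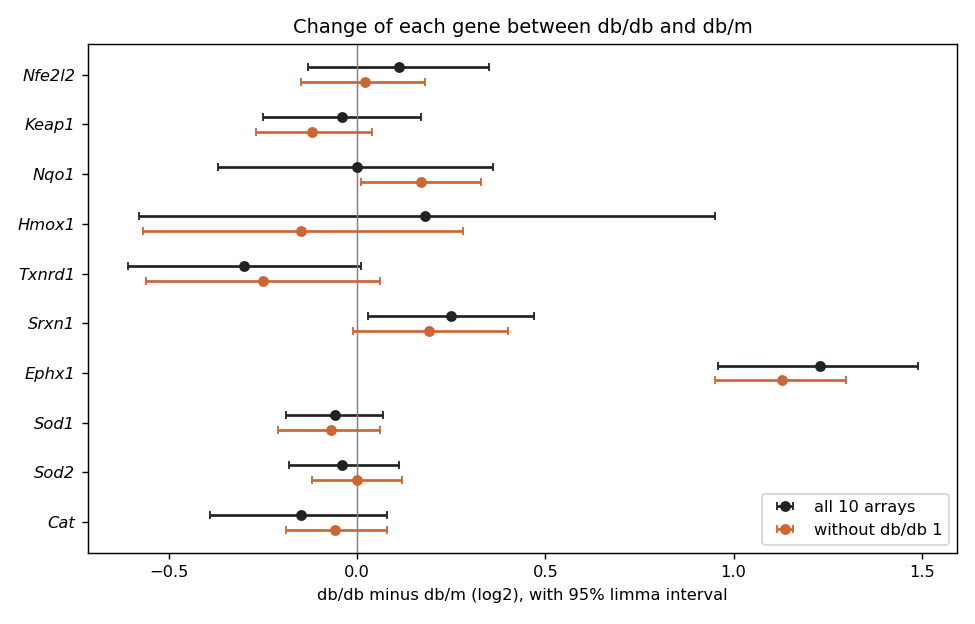
Change of each gene between db/db and db/m on the log2 scale (x axis) with its 95% limma interval; black is all 10 arrays and orange is the fit without db/db 1. Ephx1 lies at 1.23 and 1.13 with narrow intervals, Hmox1 has the widest interval, -0.58 to 0.95, and Sod1 and Sod2 lie close to 0.

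Mouse db/db 1 carried a profile of its own in these genes. It lay outside the range of the other 9 mice for 9 of the 10, above it for Nfe2l2, Keap1, Hmox1, Srxn1 and Ephx1 and below it for Nqo1, Txnrd1, Sod2 and Cat. Among all genes 61.5% lay outside in this mouse. Relative to the db/m mean, Hmox1 was higher by 1.51, Srxn1 by 0.48 and Nfe2l2 by 0.47 there. Nqo1 was at -0.67, Cat at -0.54 and Txnrd1 at -0.50. In the same mouse the proximal tubule markers had a mean of -0.60, the macrophage markers of 2.99 and the neutrophil markers of 4.63 relative to db/m. The part of this difference in cell types in each gene's value was not tested.

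**Figure D3:**
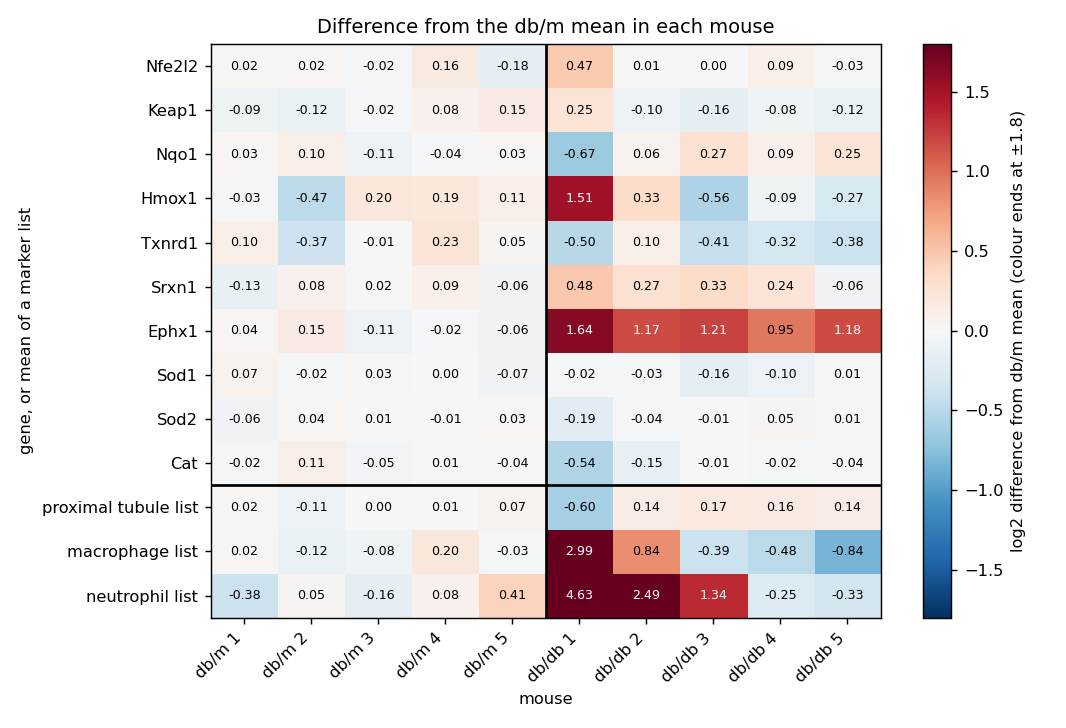
Log2 difference of each mouse (columns) from the db/m mean for the 10 genes and for the mean of 3 marker lists (rows); red is higher and blue lower, and the colour ends at 1.8 in either direction. Ephx1 is red in all 5 db/db mice, at 0.95 to 1.64, while Hmox1, Nqo1 and Cat stand out in db/db 1, at 1.51, -0.67 and -0.54.

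Other genes of the pathway were read in 7 lists, of which 66 of 76 listed genes had a named row. Some of the rest, such as G6pdx and Gdf15, have a row that the probe annotation does not name. They were left out of the list counts. The lists were chosen with earlier results of these data known, so their counts and shares are descriptive. In these lists 3 genes rose and 1 fell by limma, 6.06% against 6.51% of all genes, and the median change was 0.04 against -0.03. The 3 that rose were Abcc4, Cbr3 and Cbr1, each with groups that did not overlap. Without db/db 1 the counts were 7 higher and 2 lower, 13.6% against 12.8% of all genes. The 3 further rises in that fit besides Xdh were Aldh1a1, Tkt and Nox4, and the further fall was Me1.

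Abcc4 (Entrez 239273) encodes an efflux pump for organic anions and cyclic nucleotides. Its level was 10.89, 10.56, 10.55, 10.63 and 10.75 in db/m, and 12.34, 11.76, 12.25, 12.12 and 11.95 in db/db mice 1 to 5. All db/db mice were higher, and db/db 1 was not far from the others. The rise was 2.65-fold (1.41 ± 0.12, limma adjusted p = 0.000357). Abcc4 was the 1 called gene of 3 with a named row in a short list of other NRF2 targets, against 6.51% of all genes. In that list 2 of 3 had an unadjusted p under 0.05, against 21.5% of all genes. Osgin1 went the other way (-0.50 ± 0.20, adjusted p = 0.181). Slc7a11 was at 1.19 ± 0.70 (adjusted p = 0.361), with 7.48 in db/db 1, 3.15 to 4.01 in db/db 2 to 5 and 3.10 to 3.38 in db/m. The 2 RefSeq starts of Abcc4 each have the core in the window, beginning 23 and 25 bases before the start, at chr14:118676936-118676964 and chr14:118706226-118706254 on the minus strand. They are shown because this was the pathway gene with the largest called change. The windows of Cbr3, Cbr1 and Bach2, the other called genes of these lists, held no match.
Abcc4 first: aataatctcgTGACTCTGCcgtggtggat
Abcc4 second: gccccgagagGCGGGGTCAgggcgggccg

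Cbr1 and Cbr3 encode cytosolic carbonyl reductases, which reduce ketones and quinones with NADPH, and they are related genes near each other on chromosome 16. Cbr3 (Entrez 109857) was at 8.40, 8.29, 7.86, 8.03 and 8.11 in db/m, and at 9.08, 8.97, 9.28, 8.85 and 9.24 in db/db mice 1 to 5, a 1.93-fold rise (0.95 ± 0.12, limma adjusted p = 0.00267). Cbr1 (Entrez 12408) was at 12.00, 11.39, 11.58, 11.66 and 11.84 in db/m, and at 12.42, 12.59, 12.54, 12.51 and 12.31 in db/db, a 1.72-fold rise (0.78 ± 0.11, adjusted p = 0.00483). Both were within the range of the other db/db mice in db/db 1, and both were called in all 10 fits that left out 1 mouse. How well the array's probes tell these related genes apart was not tested. In this list of quinone, carbonyl and epoxide enzymes 2 of 13 (15.4%) rose and 0 fell, against 6.51% called among all genes. An unadjusted p under 0.05 was found for 6 of them, against 21.5% of all genes. These shares only describe the list, which was chosen with earlier results of these data known. The aldehyde dehydrogenase gene Aldh1a1 was at 0.41 ± 0.11 (adjusted p = 0.0546) and passed without db/db 1 (0.46, adjusted p = 0.0241).

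Among 14 genes of NRF2 degradation and its partner factors 1 (7.14%) fell and 0 rose, near the 6.51% called among all genes, and 2 had an unadjusted p under 0.05, which 21.5% of all genes had. Bach2, a repressor that shares the MAF partners and is best known from lymphocytes, was at 8.56, 8.57, 9.02, 8.87 and 8.27 in db/m and at 8.18, 8.19, 8.16, 8.18 and 8.02 in db/db. The groups did not overlap and the db/db mice lay close together. It fell by 0.51 ± 0.13 (limma adjusted p = 0.0451), but kept the call in 2 of the 10 fits that left out 1 mouse, the adjusted p reaching 0.106 when db/m 4 was dropped. The call was lost without any of db/m 1 to 4 or db/db 2 to 5.

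The other lists held no called gene by limma with all mice. In the 16 genes of peroxide and superoxide removal, 2 had an unadjusted p under 0.05, against 21.5% of all genes. Txnip, which binds and restrains thioredoxin and responds to glucose, was nearest the threshold in this list. It was at 11.28, 11.45, 11.48, 11.63 and 11.35 in db/m and at 12.12, 11.65, 12.36, 11.78 and 11.69 in db/db, so the groups did not overlap, yet the change of 0.48 ± 0.14 had an adjusted p of 0.0747. Of 7 haem and iron genes 1 had an unadjusted p under 0.05, against 21.5% of all genes. It was the iron exporter gene Slc40a1 (0.32 ± 0.12, adjusted p = 0.162).

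Of 5 genes that supply NADPH, the malic enzyme gene Me1 had a change of -0.30 ± 0.08 (limma adjusted p = 0.0511, and 0.0479 without db/db 1). The transketolase gene Tkt was at 0.30 ± 0.08 (adjusted p = 0.0588, and 0.0121 without db/db 1). With all mice 2 of the 5 had an unadjusted p under 0.05, against 21.5% of all genes. Of 8 genes whose enzymes produce superoxide 0 passed with all mice and 2 rose without db/db 1. Without db/db 1 and 2, a choice made after seeing the data, 2 rose and 2 fell. The shares of all genes called were 6.51% with all mice, 12.8% without db/db 1 and 11.1% without db/db 1 and 2. With all mice 1 of the 8 had an unadjusted p under 0.05, against 21.5% of all genes, namely the xanthine oxidoreductase gene Xdh. Its level was 10.14, 9.89, 9.72, 9.61 and 9.99 in db/m and 12.73, 11.07, 10.84, 10.59 and 10.35 in db/db mice 1 to 5. All db/db mice were higher, with db/db 1 far above the others. The change was 1.25 ± 0.39 (adjusted p = 0.0865), and without db/db 1 it passed at 0.84 ± 0.16 (adjusted p = 0.00735). Nox4, the NADPH oxidase gene of tubule cells, was at 0.12 ± 0.15 with all mice (adjusted p = 0.691) and rose without db/db 1 (0.26, adjusted p = 0.0289). Cybb, the oxidase gene of phagocytes, was at 10.51 in db/db 1, 7.46 in db/db 2 and 5.77 to 6.07 in db/db 3 to 5, against 6.26 to 6.66 in db/m. With all mice its change was 0.68 ± 0.80 (limma adjusted p = 0.669), and without db/db 1 it was -0.16 (adjusted p = 0.805). Without db/db 1 and 2 it fell (-0.55, adjusted p = 0.0153). That fit leaves out the db/db mice with the highest Cybb, so the fall partly follows from the choice. The macrophage means given above were also highest in db/db 1 and 2 and lowest in db/db 3 to 5, and their part in Cybb was not tested.

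**Figure D4:**
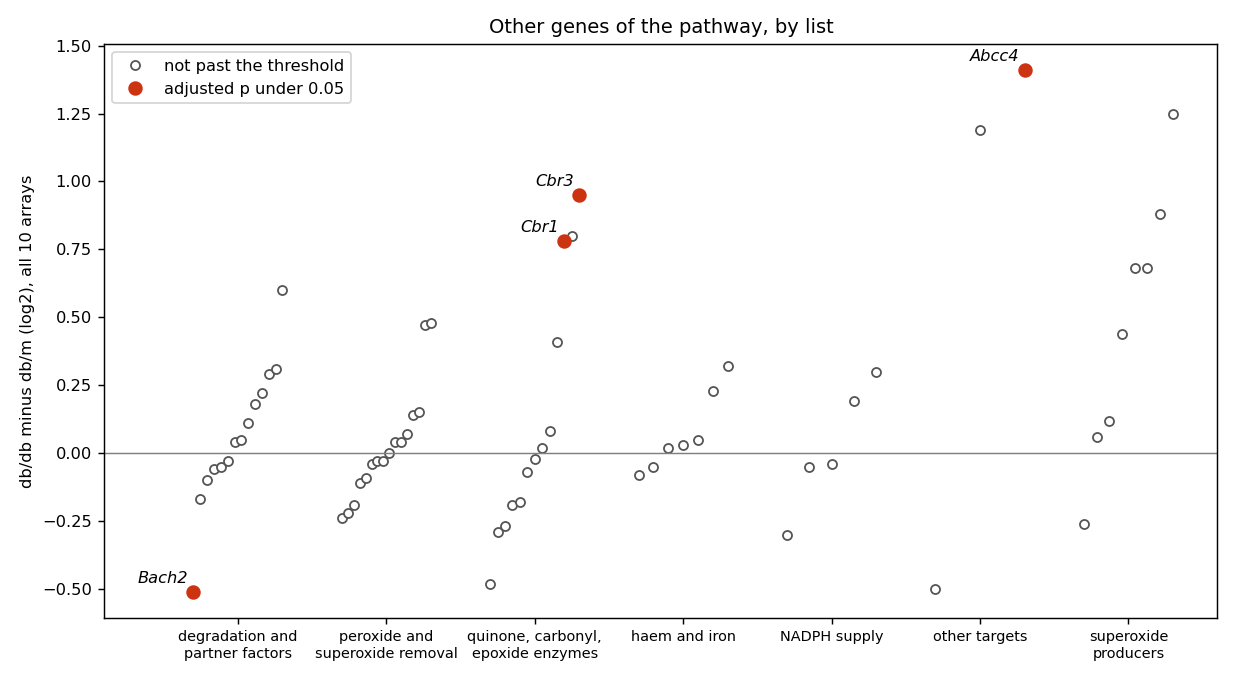
Change between db/db and db/m with all 10 arrays (y axis, log2) for 66 other genes of the pathway, grouped by list (x axis); filled points passed an adjusted p under 0.05 and open points did not. Abcc4 (1.41), Cbr3 (0.95) and Cbr1 (0.78) are the called rises and Bach2 (-0.51) the called fall.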

How the data were processed

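The deposited values are on the log2 scale, and RMA produced them, as the submitters' processing notes list. Neither its version nor how probes were regrouped into 1 value per Entrez Gene ID is given in the sources used here. The arrays were Affymetrix GeneChips for the mouse genome, per the series design text. Of 16539 rows, 64 control rows were left out. Values lay between 2.50 and 14.5, with array medians of 8.46 to 8.66, and no scaling or filter was added. Arrays give no counts, so their number limits the precision. The probe annotation named 15780 gene rows; the 695 it does not list were tested and stayed unnamed. The fit used limma 3.58.1 under R 4.3.3 (lmFit, eBayes, two-sided), with Benjamini-Hochberg adjustment over 16475 genes and a threshold of 0.05, and the script was tested on simulated data. Named were all members and the called genes of each other list (at most 8) or its gene with the lowest adjusted p. The 2 genes most like each called member were also named. Aldh1a1, Tkt, Nox4, Cybb, Slc22a8, Osgin1 and Slc7a11 were added after their values were seen. Members and lists were chosen with earlier results of these data known. Alternatives were a replicate block, median centring, repeated quantile normalisation, the dimmest 25% left out, trended robust eBayes, array weights, an adjusted p under 0.01 and each array left out; leaving out db/db 1 and 2 was added after seeing the data. Same-numbered mice did not deviate together (r of -0.0948 to 0.00599 for the 5 pairs), so the numbers were not taken to pair mice. Promoter windows were RefSeq's, build GRCm38.p6.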

Additional observations from a re-analysis of the deposited data

Results flagged for a closer look

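Among 18 named genes in 2 groups, 36 sets of 5 mice were examined for a mouse far from its group, and 5 were found; chance gives about 5% of sets. Of these, 4 were in db/db 1. There Nfe2l2 was at 12.47, with the next db/db mouse at 12.09, and Keap1 was at 7.94, with the next at 7.60. Nqo1 was at 11.26 in that mouse, with the next lowest at 11.99, and Cat was at 12.40, with the next lowest at 12.78. Bach2 was at 8.02 in db/db 5, with the other db/db mice between 8.16 and 8.19.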

How the results depend on the processing

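Ephx1 was called under every alternative run, with changes of 1.13 to 1.30 when 1 mouse was left out, and the count of members called stayed at 1 in every fit. The median change of the members was -0.02, -0.04 to 0.00 with 1 mouse left out, and -0.09 with arrays centred on their medians. Signs turned for 3 genes that never passed. Nqo1 was at 0.16 with array weights, 0.02 with quantiles repeated and 0.20 without db/db 1 and 2, and -0.07 to 0.17 with 1 mouse left out. Hmox1 was at -0.16 with array weights and -0.31 without db/db 1 and 2, and -0.15 to 0.37 with 1 mouse left out. Sod2 was at 0.01 and 0.02 in those 2 settings, and -0.06 to 0.00 with 1 mouse left out.

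Of the other pathway genes 4 were called, against 14 with array weights, 9 with dim genes left out, 8 with trended robust eBayes, 7 with quantiles repeated, 9 without db/db 1 and 2, and 3 to 9 with 1 mouse left out, the 9 being without db/db 1. Over all genes 1072 were called (488 higher, 584 lower), 363 higher and 751 lower with centred arrays, 2641 with array weights, 1834 without db/db 1 and 2, and 279 at an adjusted p under 0.01. Leaving out 1 mouse gave 490 to 2104, with 2104 without db/db 1, 490 without db/m 3, 576 without db/m 4, 644 without db/db 2, 674 without db/db 3, 683 without db/m 5 and 684 without db/m 1. With the mouse number as a replicate block, 393 genes were called, among them Ephx1 (1.23, adjusted p = 0.0121) and 3 other pathway genes, with Bach2 at an adjusted p of 0.0791 and 0 of the 5 podocyte markers called. The causes were not tested.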

Other observations

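By root mean square difference over the 10 arrays, with each gene scaled to mean 0 and SD 1, the named genes most like Ephx1 were Susd1, at 0.12 SD, and Sulf2, at 0.16 SD. Susd1 was at 6.63, 6.64, 6.42, 6.28 and 6.69 in db/m and at 8.82, 8.18, 8.26, 7.91 and 8.15 in db/db mice 1 to 5 (change 1.73 ± 0.16, limma adjusted p = 0.000400). Sulf2, which encodes a sulfatase of heparan sulfate, was at 8.27 to 8.66 in db/m and at 10.25, 9.67, 9.59, 9.29 and 9.49 in db/db (1.21 ± 0.16, adjusted p = 0.00356). In both, as in Ephx1, db/db 1 was the highest mouse and db/db 4 the lowest of the db/db group. Both genes were picked for likeness over these same mice, so the shared order describes that choice and is no separate result.

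Over all 12800 measured genes with a RefSeq window, 2070 held the TGACNNNGC core. Of these 3.67% were called higher and 3.48% lower in db/db, against 2.91% and 3.59% of all 12800, and the median change was -0.03 in both sets. Among other pathway genes 10 of 52 with a window held the core (19.2%).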
